A study of Sus scrofa with 12 samples.

Results

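Aquaporins are the water channels of cell membranes, and they were examined here in the testis and epididymis of boars. A list of 10 aquaporin genes was taken, and rows of the count files named exactly by these symbols were used. Of the 10, 7 had such a row (AQP2, AQP3, AQP4, AQP5, AQP8, AQP9 and AQP11) among the 30640 gene rows. AQP1 was reached by its Ensembl identifier, ENSSSCG00000033190, which gives 8 genes in all. AQP7 and AQP12B were matched to no row and are not analysed here. Another 3 aquaporin rows that are not on the list, AQP6, AQP10 and MIP, are described beside them.

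Both organs came from adult, untreated boars of an inbred line, the Banna mini-pig (BMI), with 5 short-read libraries per tissue. Animal numbers in the file headers recur in both tissues, so each library stands for 1 of 5 boars, although the extraction protocol in the labels speaks of mixed samples and does not say which libraries that covers. The labels give an age of 12 months for all, whereas the headers give 12, 12, 11, 17 and 11 months for replicates 1 to 5. No allele, agent or transgene is named for any group, and no source used here says which region of the epididymis was sampled. Another 2 long-read samples of pooled boars are not analysed here.

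Aquaporins form tetramers in which each subunit holds its own pore. The orthodox members, such as AQP1, AQP2, AQP4 and AQP5, pass mainly water, the aquaglyceroporins AQP3, AQP7, AQP9 and AQP10 also pass glycerol and other small solutes, AQP8 also carries ammonia and hydrogen peroxide, and AQP11 is a divergent member of intracellular membranes. In the male tract, fluid secreted into the seminiferous tubules carries sperm out of the testis, and most of it is taken back up in the efferent ducts and the epididymis, where water follows salt.

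Libraries held 17980578 to 30211957 reads, and values are counts per 1000000 reads of the library (CPM). In a library without a read of a gene, up to 3 reads (0.0993 to 0.167 CPM) remain possible, a limit that covers counting error only. Markers matched the labelled tissues. The Leydig cell list (4 of 5 genes with a row) summed to 12070 to 19250 CPM in testis and 26.3 to 33.6 in epididymis, and the list of epididymal principal cells (5 of 5) to 69.2 to 140 and 14080 to 30130 CPM. Testis replicate 4 stood apart from the other testis libraries in its RNA classes, with 7.75 CPM of the signal recognition particle RNA, which has no poly(A) tail, against 7888 to 9134 in the others and 1.00 to 8.27 in the epididymis. In this RNA, testis replicate 4 was near the epididymis libraries. For the other testis libraries, RNA class and tissue cannot be told apart in the tissue contrast. Epididymis replicate 3 stood apart as well, with 4126 CPM of genes known in rodents to mark the proximal epididymis (5 of 7 with a row) against 395 to 528 in the others, and with 483 CPM of haploid germ cell genes (8 of 8) against 24.2 to 73.7. GPX5 gave 2580 CPM of the proximal sum there, and ROS1, LCN9 and ADAM7 were also highest in that library. LCN8 was not, with 68.5 CPM against 35.5 to 72.6 in the others. In bulk tissue, fewer cells of a type and less RNA per cell cannot be told apart.

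The tissues used different aquaporins. Testis libraries held mainly AQP11, AQP8 and AQP1, and epididymis libraries mainly AQP1 and AQP9. Of the 8 genes with a row, 5 passed the filter on low counts, and edgeR's quasi-likelihood test placed 3 of them on the testis side (AQP11, AQP8 and AQP3) and 2 on the epididymis side (AQP9 and AQP1), at an adjusted p under 0.05. The tissues differ so widely that 74.4% of all 17225 genes tested were called (36.6% on the testis side and 37.8% on the other), so 5 calls among 5 genes are near what any gene shows. The median log2 fold change, testis over epididymis, was 1.37 over these 5 genes and -0.07 over all genes tested. AQP8, AQP9 and AQP11 also passed a test for a change beyond 2-fold, as 50.7% of all genes did, and their libraries did not overlap between the tissues, as in 61.4% of all genes. The p-values compare the libraries of the tissues, 1 per boar, without use of the pairs.

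**Figure D1:**
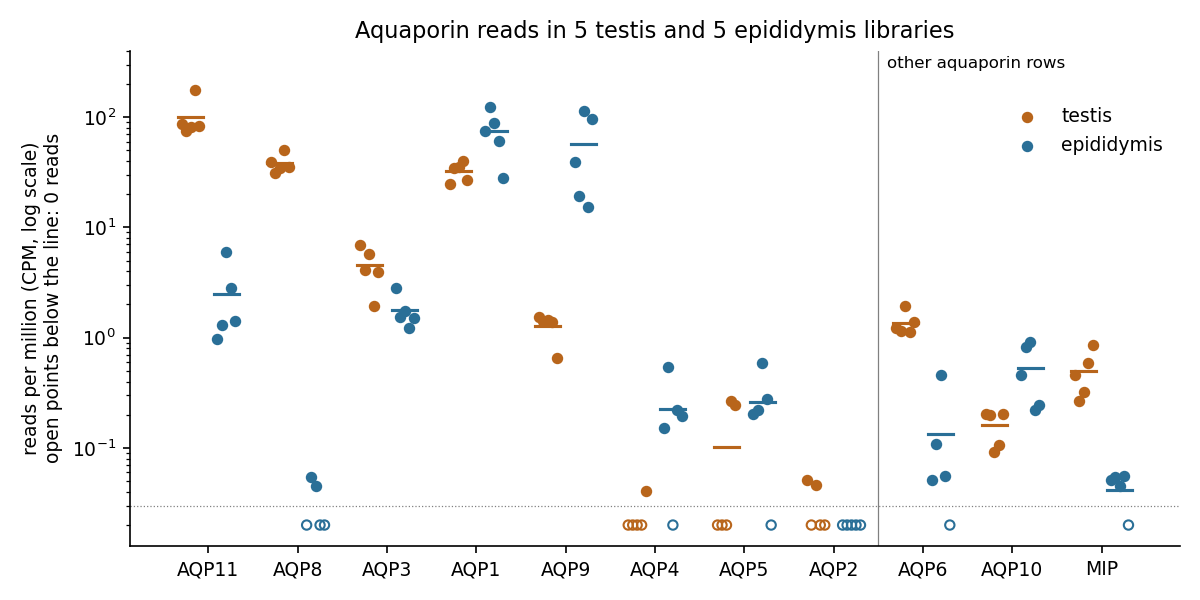
CPM (log scale) of each aquaporin in the 5 testis and 5 epididymis libraries, with bars at the mean of each tissue and open points for libraries with 0 reads. AQP11 and AQP8 lie apart on the testis side, with means of 100.4 and 38.0 CPM, and AQP9 on the epididymis side, with a mean of 56.7 CPM.

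AQP11 was the most abundant aquaporin of the testis. This gene, an intracellular aquaporin known for its part in the endoplasmic reticulum of kidney tubules, lies on chromosome 9, 12065550 to 12076339 (Sscrofa11.1). It had 87.4, 75.5, 81.5, 175 and 82.9 CPM in testis replicates 1 to 5. Its epididymis values were 0.967, 1.31, 5.97, 2.84 and 1.42 CPM. Every testis library lay above every epididymis library, replicate 4 was high among the testis libraries and replicate 3 among the epididymis libraries. The log2 fold change was 5.35 ± 0.52 (SE), a 40.9-fold difference (edgeR adjusted p = 2.4e-06), which was 5.94 without epididymis replicate 3.

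Testis replicate 4 held 2.0 times as much AQP11 as the highest of the other testis libraries, a distance that 6.73% of all genes tested reached in that library. The haploid germ cell list summed to 16140 CPM in that library against 12960 to 14280 in the other testis libraries, and 5 of its 8 genes were clearly highest there. The protamine gene PRM2 had 1460 CPM against 229 to 296, the transition protein gene TNP1 2400 against 629 to 766, and the acrosomal membrane protein gene SPACA1 189 against 68.6 to 85.5, and TNP2 and ODF1 went the same way. OAZ3, a gene of late spermatids, was low instead, with 923 CPM against 2010 to 2370, and PRM1, the other protamine gene, was the lowest of the 5 libraries at 7530 against 7610 to 8200. The part of library content in the AQP11 value was not tested. In epididymis replicate 3, AQP11 stood 2.11 times above the next library, as 8.53% of genes did. The haploid germ cell list was at 483 CPM there, and none of its genes was at 0 in any library. Whether germ cell RNA carries AQP11 into the epididymis libraries was not tested.

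AQP8, a channel for water, ammonia and hydrogen peroxide known from the inner mitochondrial membrane and from testis, came nearest to an all-or-none difference. It lies on chromosome 3, 21493564 to 21503778. Testis replicates 1 to 5 had 39.0, 31.1, 34.3, 50.3 and 35.2 CPM, 4241 reads in all. The epididymis libraries had 2 reads in all, 1 each in replicates 2 and 3, which is under the limit that a count of 0 allows. The ratio of testis to epididymis reads per 1000000 was 1821, with a 95% counting interval of 504 to 15000 that does not cover the spread between libraries (edgeR adjusted p = 1.4e-08). Epididymis replicate 3, with 1 read of AQP8, was the library with the most haploid germ cell RNA. Whether that RNA carries AQP8 was not tested.

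AQP3, an aquaglyceroporin of basolateral membranes and a common gene of basal epithelial cells, was higher in testis at low levels. The gene lies on chromosome 10, 33045374 to 33050285, with AQP7 as its next protein-coding neighbour. Testis replicates 1 to 5 had 6.87, 4.14, 5.79, 1.92 and 3.94 CPM. The epididymis values were 2.85, 1.53, 1.73, 1.22 and 1.52 CPM. Testis replicate 4 was low and overlapped with the epididymis libraries, while the other 4 testis libraries lay above all 5 of them. The log2 fold change was 1.37 ± 0.39 (edgeR adjusted p = 0.0066), and it did not pass the test beyond 2-fold (edgeR adjusted p = 0.114). Set against the epididymis by testis replicate 4 alone, the log2 difference was 0.21. Markers of basal cells went the other way: their list (3 of 4 genes with a row, none at 0) summed to 4.92 to 6.10 CPM in testis and 315 to 1083 in epididymis. Within the epididymis the list's genes had no common order: KRT14 was highest in replicate 1, at 864 CPM, which also had the most AQP3, KRT5 in replicate 4, at 292 CPM, which had the least, and TP63 in replicate 3. The part of these cells in the AQP3 levels was not tested.

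AQP9 was the aquaporin with the largest difference in favour of the epididymis. It is an aquaglyceroporin, known in rodents from the apical membrane of epididymal principal cells and in other tissues from liver and white blood cells, and lies on chromosome 1, 113798380 to 113848452. Epididymis replicates 1 to 5 had 39.3, 19.2, 113, 15.4 and 96.3 CPM. The testis libraries had 1.54, 1.42, 1.43, 1.39 and 0.657 CPM. All epididymis libraries lay above all testis libraries, and among them replicates 3 and 5 were high and replicates 2 and 4 low. The log2 fold change was -5.43 ± 0.63, 43.2-fold higher in epididymis (edgeR adjusted p = 1.0e-05).

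Markers of macrophages and neutrophils (6 of 7 genes with a row) summed to 76.6 to 175 CPM in epididymis and 22.99 to 31.3 in testis. CD68 alone held 20.5 to 123 CPM of the epididymis sums, and without it the other 5 genes summed to 28.8 to 96.5 CPM in epididymis and 19.8 to 25 in testis. Without CD68 the sum was highest in replicate 3, which had the most AQP9, and next in replicate 4, with 86.3 CPM, which had the least. CD163 and CSF1R, both macrophage genes, were highest in replicate 3 as well, at 23 and 63.8 CPM. AIF1 and CSF3R were instead highest in replicate 4, at 8.29 and 4.56 CPM, and CD68 was lowest in replicate 3, at 20.5 CPM. The neutrophil gene S100A8 was at 0 in 4 of the 5 epididymis libraries and 3 of the 5 testis libraries. The part of these cells in the tissue difference was not tested.

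AQP1, the water channel of red blood cells, capillary endothelium and the efferent ducts, was abundant in both tissues and higher in epididymis. The gene lies on chromosome 18, 42063482 to 42076741. Epididymis replicates 1 to 5 had 74.9, 122, 88.3, 61.1 and 28.2 CPM. The testis values were 24.6, 34.9, 34.9, 40.4 and 27.1 CPM. The tissues overlapped because epididymis replicate 5 lay within the range of the testis, whereas the other 4 lay above it. The log2 fold change was -1.19 ± 0.33 (edgeR adjusted p = 0.0060), which did not pass the test beyond 2-fold (edgeR adjusted p = 0.196). With testis replicate 4 alone the log2 fold change was -0.78.

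Marker lists of the cells in which AQP1 is best known did not share 1 direction. The red blood cell list (4 of 7 genes with a row) summed to 3.79 to 18.9 CPM in testis and 11.9 to 70.0 in epididymis, with SLC4A1 at 0 in testis replicate 4 and epididymis replicate 5. Within the epididymis that sum was highest in replicate 2, which had the most AQP1, and lowest in replicate 5, which had the least. The endothelial list (7 of 7, none at 0) summed to 289 to 519 CPM in testis and 639 to 1196 in epididymis, but EGFL7 set that gap, with 32.8 to 66.9 and 239 to 752 CPM. Without EGFL7 the sum of the other 6 genes overlapped between the tissues, with 229 to 452 CPM in testis and 216 to 575 in epididymis. That sum was highest in epididymis replicate 3 and lowest in replicate 5. Among these genes TEK alone did not overlap, with 6.72 to 8.23 CPM in testis and 15.3 to 28.1 in epididymis. CDH5, VWF, KDR and CLDN5 overlapped, and PECAM1 did so only because of epididymis replicate 5, at 44.8 CPM. For ciliated and efferent duct cells (5 of 5, none at 0) the list summed to 169 to 288 CPM in testis. In epididymis it summed to 43.9 to 256 CPM. Its genes also differed in direction. DNAI1 had 81.6 to 120 CPM in testis and at most 1.64 in epididymis. CCDC39 instead had 6.43 to 13.1 CPM in testis and 10.9 to 17.5 in epididymis. The sum is therefore no measure of 1 cell type across the tissues. In epididymis replicate 5, where the sum was highest at 256 CPM, DNAH9 and FOXJ1 were highest, at 230 and 10.8 CPM. CCDC39 and ESR1, the latter at 4.41 CPM, were lowest there, as AQP1 was. Their part in the AQP1 difference was not tested.

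The remaining listed genes, AQP2, AQP4 and AQP5, were too low to pass the filter. AQP2, the vasopressin-regulated channel of the kidney collecting duct, had 1 read each in testis replicates 1 and 3 and none in the other libraries of either tissue. AQP4, known from astrocytes and skeletal muscle, had 3, 10, 0, 4 and 4 reads in epididymis replicates 1 to 5 and 1 read in all testis libraries together, a ratio of 24.5 in favour of the epididymis with a 95% counting interval of 3.93 to 1010. In a fit without the filter AQP4 was called, with a log2 fold change of -3.95 (edgeR adjusted p = 0.0074). The skeletal muscle list (5 of 6 genes with a row) summed to 20.7 to 30.2 CPM in testis and 12.4 to 37.1 in epididymis, with MYL1 at 0 in all epididymis libraries, but its genes went opposite ways. The muscle creatine kinase gene CKM had 1.71 to 2.38 CPM in testis and 26.7, 34.4, 7.11, 9.23 and 10.9 in epididymis replicates 1 to 5, highest and lowest in the same libraries as AQP4, while the actin gene ACTA1 had 8.70 to 10.7 CPM in testis and 0.153 to 0.612 in epididymis. Within the epididymis MYH7 was highest in replicate 3, at 21.6 CPM, where AQP4 had 0 reads, and had 2.3 CPM in replicate 2. ACTA1 was highest in replicate 4 and TNNT3 in replicate 2. The part of muscle in the AQP4 reads was not tested. AQP5, a channel of gland cells, had 4, 4, 13, 5 and 0 reads in the epididymis and 0, 0, 0, 5 and 6 in testis, so the tissues overlapped. AQP2, AQP5 and AQP6 are direct neighbours on chromosome 5, between 15862739 and 15892113, and all were low in these libraries.

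Of the aquaporins outside the list, AQP6, an anion-permeable member of intracellular vesicles, was the 1 that passed the filter. It had 1.23, 1.16, 1.94, 1.12 and 1.40 CPM in testis replicates 1 to 5. The epididymis values were 0.0509, 0.110, 0.456, 0.0556 and 0 CPM, the highest again in replicate 3. The log2 fold change was 3.28 ± 0.65 (edgeR adjusted p = 0.00061), or 4.55 without epididymis replicate 3 and 3.11 with testis replicate 4 alone. MIP, the lens aquaporin, had 56 reads in testis and 4 in epididymis, a ratio of 12.0 (95% counting interval 4.44 to 45.7). Its gene overlaps SPRYD4 by 620 bases in the RefSeq annotation, so reads could be shared. AQP10, an aquaglyceroporin of the intestine, had 19 reads in testis and 53 in epididymis, a ratio of 3.25 in favour of the epididymis (1.89 to 5.81).

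Within each boar the tissue difference had the same direction in all 5 animals for AQP11, AQP3, AQP9 and AQP1. For AQP11 the testis exceeded the epididymis 90.4, 57.4, 13.7, 61.7 and 58.4 times in boars 1 to 5. For AQP9 the epididymis exceeded the testis 25.5, 13.5, 79.0, 11.05 and 147 times, so the boars of replicates 3 and 5 had the widest gaps. For AQP3 the testis exceeded the epididymis 1.57 to 3.34 times, least in boar 4. For AQP1 the epididymis exceeded the testis 3.04, 3.51, 2.53, 1.51 and 1.04 times, which is close to no difference in boar 5. Pairing the samples by boar in the fit changed none of these calls.

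**Figure D2:**
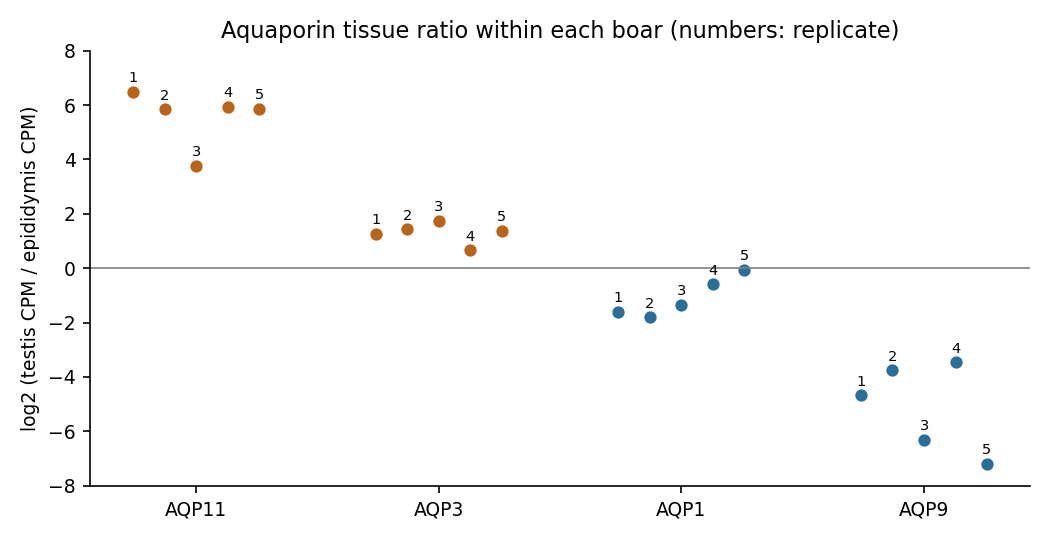
Log2 ratio of testis to epididymis CPM within each of the 5 boars (numbers: replicate) for the 4 listed aquaporins with reads in every library. AQP11 lies between 3.77 and 6.50, AQP3 between 0.65 and 1.74, AQP1 between -1.81 and -0.06, and AQP9 between -7.20 and -3.47.

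Levels of different genes were compared per length, as CPM per kilobase of the gene length in the files. In testis AQP11 stood at 34.4 ± 14.3 CPM per kilobase (SD, n = 5), AQP8 at 13.2 ± 2.58, AQP1 at 10.1 ± 2.01 and AQP3 at 2.49 ± 1.04. AQP8 and AQP1, neighbours in this order, did not differ beyond their spread, and in replicate 2 AQP1 was the higher. AQP6 followed with 1.13 ± 0.277, AQP9 with 0.234 ± 0.065 and MIP with 0.223 ± 0.106, of which the last pair overlapped. In epididymis the order was AQP1 with 23.5 ± 10.8, AQP9 with 10.3 ± 8.23, AQP3 with 0.972 ± 0.346 and AQP11 with 0.858 ± 0.709, followed by AQP10 with 0.507 ± 0.306. There AQP1 and AQP9 overlapped in their spread, as did AQP3 and AQP11.

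As shares of the summed level per kilobase of the 8 genes, the testis libraries had the same leading member. AQP11 took 54.2, 51.6, 51.5, 65.5 and 55.1% of it in replicates 1 to 5, the largest share in each. AQP8 took 19.1 to 24.5% and AQP1 13.8 to 21.8%. AQP3 took 1.15% in replicate 4 and 4.20 to 6.81% in the other testis libraries. AQP9, at 0.232 to 0.516%, was nearly absent from the testis sum.

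The epididymis libraries had no common leading member. AQP1 held 71.8, 88.4, 53.5, 80.4 and 31.9% of the sum in replicates 1 to 5. AQP9 held 21.9, 8.06, 39.9, 11.7 and 63.2%, so it led in replicate 5, where AQP1 led in the other 4. The ratio of AQP9 to AQP1 per kilobase ran from 0.0912 in replicate 2 to 1.98 in replicate 5. AQP11 took 1.02 to 4.09% and AQP8 at most 0.0439%. The summed level itself was 50.1 to 91.5 CPM per kilobase in testis, highest in replicate 4, and 23.8 to 51.6 in epididymis, highest in replicate 3, so the ranges overlapped.

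**Figure D3:**
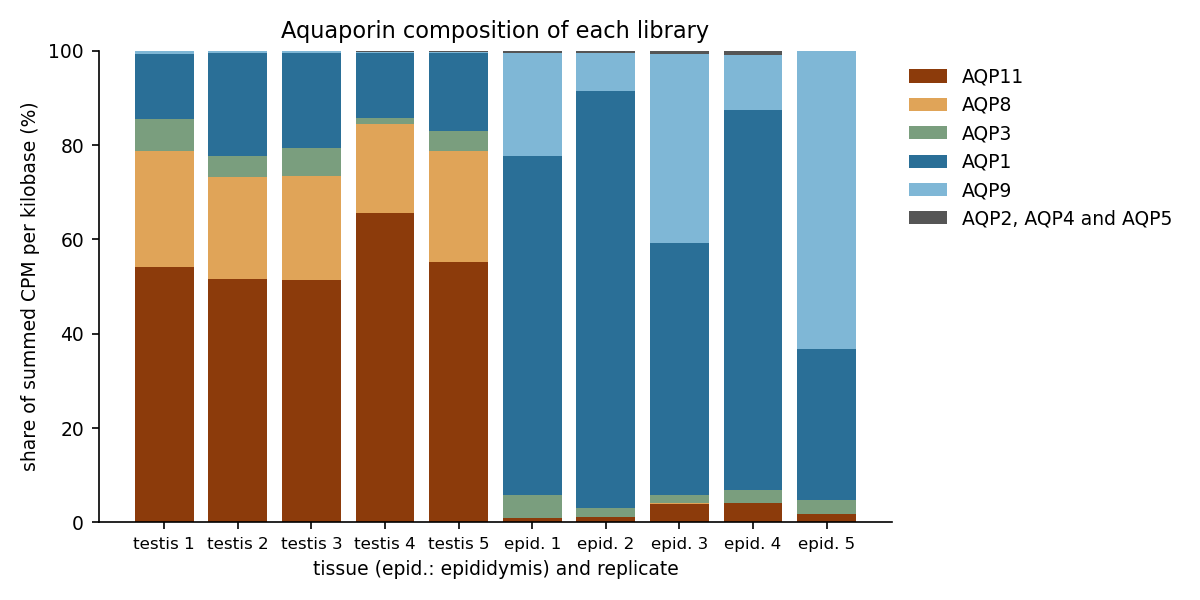
Share of each aquaporin (%) in the summed CPM per kilobase of the 8 listed aquaporins, for each of the 10 libraries. AQP11 takes 51.5 to 65.5% in testis, and in the epididymis AQP1 takes 31.9 to 88.4% and AQP9 8.06 to 63.2%.

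The epididymis libraries varied more among themselves than the testis libraries in many genes: the highest was at least 4-fold the lowest in 23.5% of all genes tested, against 6.86% in testis. AQP9 spanned 7.38-fold, AQP11 6.17-fold and AQP1 4.34-fold over the epididymis, and AQP3 2.33-fold. A spread as large as that of AQP9 was found in 10.7% of all genes tested, and one as large as that of AQP1 in 21.1%. In testis the spans were 2.34-fold for AQP9, 2.32-fold for AQP11, 1.64-fold for AQP1 and 3.57-fold for AQP3. Whether a gene's spread differs between the tissues was not tested. Without epididymis replicate 3 the span of AQP11 was 2.93-fold, and without replicate 5 that of AQP1 was 2.0-fold, so each rests on 1 library. The span of AQP9 was 5.90-fold to 7.38-fold whichever library was left out.

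AQP9 and AQP1 did not share an order over the epididymis libraries. Replicate 3 had the most AQP9 and the second most AQP1, replicate 5 had the second most AQP9 and the least AQP1, and replicate 2 had the most AQP1 with little AQP9. Replicate 3 was also the library rich in GPX5, a glutathione peroxidase of the caput in rodents (2580 CPM against 1.56 to 52.7), and in ROS1, a receptor of the initial segment in rodents (529 against 1.37 to 16.2). Replicate 5, with nearly as much AQP9, had the second most GPX5, 52.7 CPM against 1.56 to 4.71 in replicates 1, 2 and 4. Its ROS1 value of 1.91 CPM lay within the 1.37 to 16.2 of replicates 1, 2 and 4. Of the principal cell list, the secreted protein gene CRISP1 stood at 53.2 CPM in replicate 3 and at 1380 to 2680 in the others. LTF, EPPIN and SPINK14 were also lowest in replicate 3. NPC2 went the other way, second highest there at 12500 CPM, after 18200 in replicate 4. The list sum was lowest in replicate 3, at 14080 CPM, and highest in replicate 4, at 30130, where AQP9 was highest and lowest. The part of the sampled region or of these cells in the AQP9 spread was not tested.

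**Figure D4:**
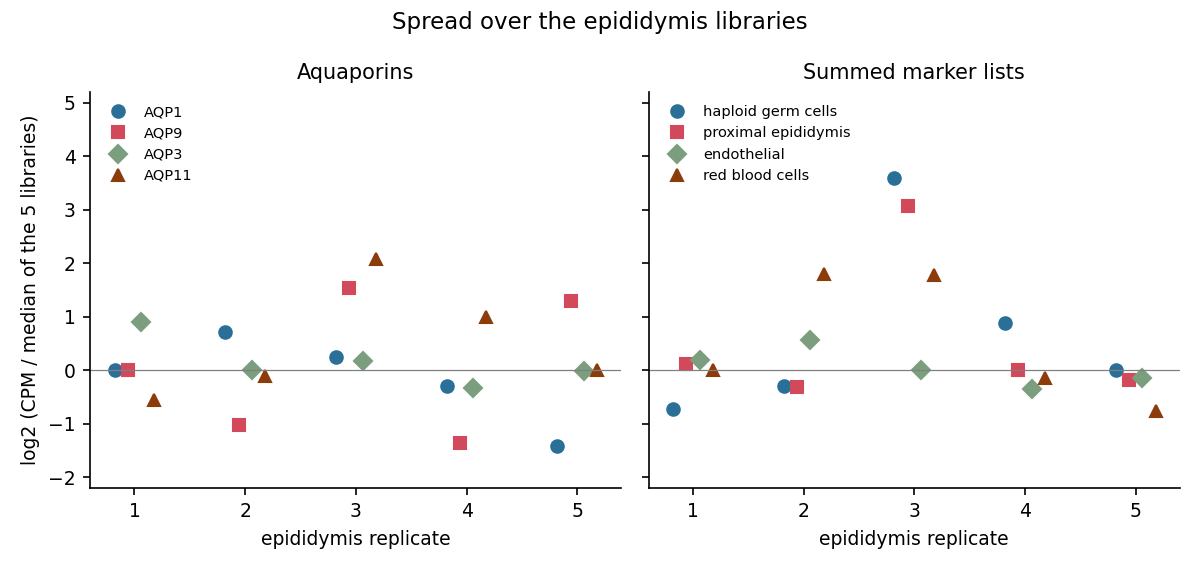
Log2 of the CPM over the median of the 5 epididymis libraries, by replicate, for 4 aquaporins (left) and for the summed markers of 4 lists (right). AQP9 is high in replicates 3 and 5, AQP1 is low in replicate 5, and replicate 3 is high in AQP11, in haploid germ cell genes and in proximal epididymis genes.

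The genes whose pattern was nearest to each aquaporin were found by the root mean square difference of centred log2 CPM over the 10 libraries, among 13809 named genes. The points share their libraries, so this is a description. SOX5, a transcription factor with a short form in spermatids, and WDR38 lay nearest to AQP11 (0.163 and 0.208 log2 units), and SOX5 had 74.0 ± 35.5 CPM in testis and 1.91 ± 1.86 in epididymis. PIWIL1, a protein of the piRNA pathway in male germ cells, and the kinesin KIF2B lay nearest to AQP8 (0.302 and 0.386). MUTYH, a DNA repair glycosylase, and the centrosomal gene CEP131 lay nearest to AQP1 (0.164 and 0.175), and SRCIN1 and the kinase PIM2 nearest to AQP3 (0.299 and 0.321). No gene came as near to AQP9: GPX6, of the glutathione peroxidase family, and SLC16A6, of the monocarboxylate transporter family, were at 0.597 and 0.614. For AQP6 they were SMURF1, a ubiquitin ligase, and FAM240B (0.223 and 0.274).

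Other genes of water and solute handling were taken from lists of 66 genes, of which 57 were tested. On the testis side 16 were called and on the epididymis side 27, while 14 were not called, and the median log2 fold change was -0.57. Their called share is close to the 74.4% of all genes, and the counts of single lists below, each of a few genes and with no test of the list, stand beside 36.6% of all genes on the testis side and 37.8% on the other. From testis replicate 4 alone, 12 and 10 were called.

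Of 21 tested genes of salt transport, which water follows, 11 were higher in epididymis (37.8% of all genes were) and 4 were lower (36.6%). The median log2 fold change was -0.78, against -0.07 over all genes. SLC9A3, the apical sodium-proton exchanger NHE3, had 240, 285, 7.66, 56.8 and 519 CPM in epididymis replicates 1 to 5. Testis held at most 1.53 CPM of it (log2 -7.94 ± 1.09, edgeR adjusted p = 3.8e-05, and log2 -9.92 with testis replicate 4 alone). It was high in replicate 5, as AQP9 was, but lowest in replicate 3, where AQP9 was highest. ATP1A4, the sodium pump subunit of sperm, had 875 ± 137 CPM in testis against 96.0 ± 32.7 (log2 3.20 ± 0.26), and SLC12A4, a potassium-chloride cotransporter, 173 ± 29.3 against 42.7 ± 5.97. CFTR, the chloride channel that can act with AQP9 and was chosen here after its values were seen, had 6.08 to 48.6 CPM in epididymis and at most 0.123 in testis.

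Glycerol metabolism, which the aquaglyceroporins can feed, had 3 of 9 tested genes called on the testis side and 5 on the other, beside 36.6% and 37.8% of all genes. GK2, a glycerol kinase of testis, stood at 441 ± 150 CPM there, against 3.01 ± 3.03 in the epididymis (log2 7.24 ± 0.68, or 7.98 without epididymis replicate 3). LIPE, the hormone-sensitive lipase that releases glycerol from fat, had 716 ± 120 against 10.4 ± 6.42 CPM. On the epididymis side, GPAM, which builds lipids from glycerol phosphate, had 806 ± 502 against 29.5 ± 4.99 CPM (log2 -4.73, or -4.00 without epididymis replicates 3 and 4). GPD1L, of the glycerol phosphate dehydrogenases, had 118 ± 32.0 against 67.8 ± 15.9 CPM, a 1.71-fold difference that did not pass the test beyond 2-fold (edgeR adjusted p = 0.789). From testis replicate 4 alone the difference was 2.60-fold.

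Urea transport was represented by SLC14A2, with 3.84 ± 0.999 CPM in testis against 0.383 ± 0.131 (log2 3.33 ± 0.35), and by SLC14A1, which was not called (edgeR adjusted p = 0.0895). SLC14A1 was called without testis replicate 2 or epididymis replicate 3 (edgeR adjusted p = 0.0476 and 0.0327). Among 10 osmolyte genes, 3 calls fell on the testis side and 4 on the other, close to the 36.6% and 37.8% of all genes. SLC6A6, the taurine transporter, had 166 ± 9.47 against 16.9 ± 5.09 CPM and SORD, sorbitol dehydrogenase, 125 ± 22.6 against 7.63 ± 3.92. AKR1B1, the aldose reductase that makes sorbitol, went the other way with 161 ± 21.6 in testis against 611 ± 395 (log2 -1.86, edgeR adjusted p = 0.0013). From testis replicate 4 alone its log2 fold change was -2.16, and without epididymis replicates 3 and 4 it was -1.10 and called (edgeR adjusted p = 0.0035). CDO1, an enzyme of taurine synthesis, had 13.4 ± 5.49 against 250.2 ± 171 CPM (log2 -4.20, or -3.32 from testis replicate 4 alone).

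Of 9 genes of volume-regulated channels and their kinases, 5 were called on the testis side and 2 on the other, beside 36.6% and 37.8% of all genes. The LRRC8 subunits of the volume-regulated anion channel differed in their side. LRRC8B had 255 ± 54.5 CPM in testis against 4.58 ± 6.67 (log2 5.84 ± 0.83, or 7.30 without epididymis replicate 3 and 6.81 with the boar as a block). LRRC8E had 2.86 ± 0.537 against 67.6 ± 5.74 CPM, with little spread over the epididymis libraries. The kinase WNK1 had 908 ± 101 CPM in testis against 207 ± 92.3, and TRPV4, a channel that opens on cell swelling, 5.68 ± 1.37 against 28.0 ± 10.3.

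Among receptors that act on duct fluid, 5 of 6 were higher in epididymis, beside 37.8% of all genes. AVPR2, the vasopressin receptor that drives AQP2 in the kidney, had 29.4, 40.1, 2.69, 2.95 and 67.4 CPM in epididymis replicates 1 to 5 and 0.452 to 1.52 in testis (log2 -5.17 ± 0.94, edgeR adjusted p = 0.00035). The log2 fold change was -4.58 without epididymis replicate 5, -4.40 with the boar as a block and -5.87 without epididymis replicates 3 and 4, and it was called in each. AQP2 itself had 0 reads in all 5 epididymis libraries, including the 3 with the most AVPR2. With testis replicate 4 alone the AVPR2 log2 fold change was -5.81.

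**Figure D5:**
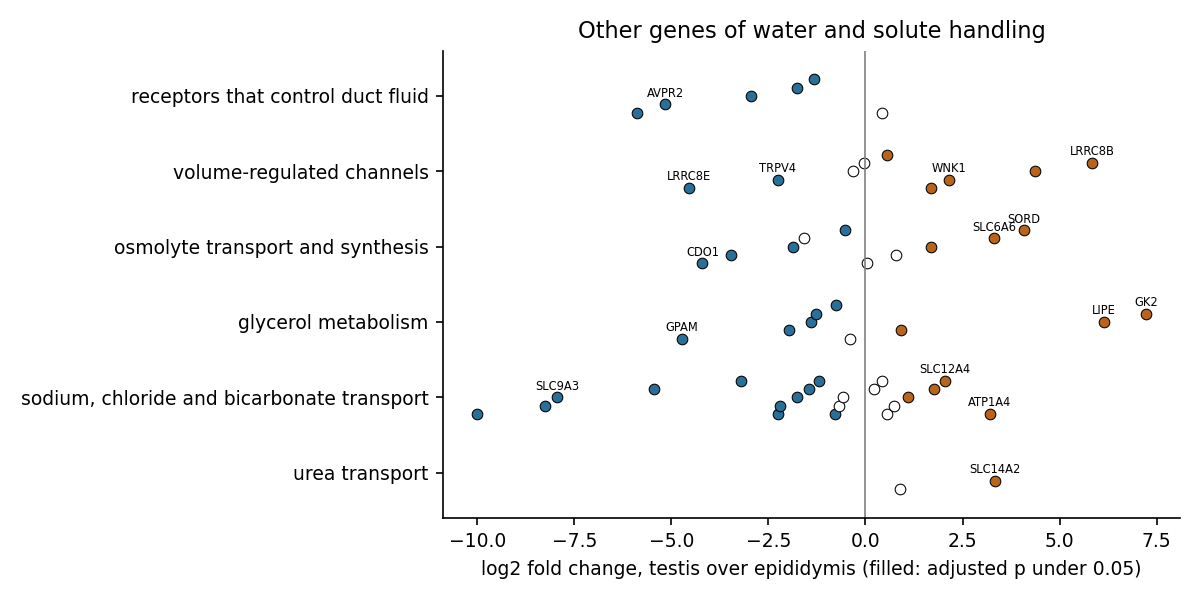
Log2 fold change, testis over epididymis, of the 57 tested genes of the 6 lists, with filled points for genes past an adjusted p of 0.05 (edgeR) and names for those of the most abundant called genes whose log2 fold change is beyond 2 in either direction. GK2 and LIPE lie farthest on the testis side, at 7.24 and 6.15, and 14 of the 57 points are open.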

How the data were processed

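RNA from testis and epididymis was sequenced as poly(A)-enriched cDNA, per the labels' protocols. Testis replicates 1, 2, 3 and 5 nonetheless held much signal recognition particle RNA, which has no poly(A) tail. Per gene, the authors deposited raw counts of reads, made with cutadapt 3.0, STAR and featureCounts of Subread on the build Sscrofa11.1, per the submitters' processing notes. No source used here gives the strand setting or the handling of multi-mapped reads. Gene lengths are those in the deposited files, and coordinates are from a RefSeq table of the same build. Of 15226 rows with an Ensembl identifier, 810 were named from a table of identifiers, AQP1 among them.

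Tests used edgeR 4.0.16 in R 4.3.3: filterByExpr, TMM factors, robust quasi-likelihood test with tissue as the only term, Benjamini-Hochberg adjustment over 17225 genes, and a second test beyond 2-fold (glmTreat). Standard errors are approximate (the unshrunken log2 fold change over the square root of F). In simulated data of 17225 genes with 200 changed, the script called 10% of 2-fold and 68% of 4-fold changes, and 2 unchanged genes. In the data 74.4% of genes were called, and the adjustment is stricter where few genes change. These rates therefore do not give the recovery in the tissue contrast. Counting intervals of read ratios are exact binomial, at 95%. DESeq2 1.42.0, other scalings, no filter and left-out libraries were alternatives.

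Animal numbers in the headers pair the replicates of the 2 tissues. Deviations of same-numbered samples from their tissue means correlated at 0.00867 to 0.0893 across genes. Only testis replicates 2 and 5 correlated best with the epididymis library of their own number. The pairing by boar thus rests on the header numbers. No 2 libraries were identical (lowest chi-square per gene 9.52 in testis and 72.5 in epididymis).

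The members and lists were chosen with earlier results of these data known. All listed aquaporins were named, and from each other list the 2 most abundant called genes per direction, any other aquaporin row, and the 2 genes nearest in pattern to each tested aquaporin. Some genes that this rule names are not reported here.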

Additional observations from a re-analysis of the deposited data

Results flagged for a closer look

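In 17 groups of 5 libraries with more than 3 reads in some library, 3 held a library whose gap to its nearest neighbour was large against the range of the group (Dixon's test). Chance flags about 1 in 20 groups. AQP11 stood apart in testis replicate 4, at 175 CPM. AQP9 stood apart in testis replicate 5, at 0.657 CPM or 16 reads. AQP6 stood apart in epididymis replicate 3, at 0.456 CPM or 10 reads.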

How the results depend on the processing

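The 6 tested aquaporins, AQP6 included, kept their direction in all 18 alternatives, 103 times with and 5 times without their call. The 5 lost calls were AQP1 and AQP3 in the test beyond 2-fold, and AQP1, AQP3 and AQP6 from testis replicate 4 alone. Higher in epididymis were then 1 of the listed aquaporins in each of these settings. Over all genes, 4033 were higher in epididymis beyond 2-fold and 2145 with testis replicate 4 alone, where the spread comes from the epididymis only. Of the genes of water and solute handling, 10 were higher in epididymis there. That setting moved the share of calls higher in testis from 49.2% to 67.3%. With 1 testis library standard errors rose, from 0.33 to 0.70 for AQP1 and from 0.63 to 1.64 for AQP9. A lost call there thus does not by itself show a smaller difference. The cause of the shift was not tested. With a replicate block for the boar, 3 and 2 listed aquaporins were called, 6307 and 6055 genes over all, and 16 and 25 genes of water and solute handling. AQP9 then had a log2 fold change of -5.01 and AQP11 of 5.59. The block changed no call of an aquaporin.

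Leaving out 1 library at a time gave log2 fold changes of -1.42 to -0.91 for AQP1, 1.22 to 1.62 for AQP3, 10.24 to 11.06 for AQP8, -5.71 to -5.07 for AQP9 and 5.08 to 5.94 for AQP11. Their highest edgeR adjusted p was 0.0226. Mean shares ran from 53.1 to 56.6% for AQP11 and 21.6 to 22.9% for AQP8 in testis, and from 20.4 to 34.2% for AQP9 and 59.4 to 73.5% for AQP1 in epididymis. Spans over the epididymis ran from 5.90 to 7.38-fold for AQP9, 2.0 to 4.34-fold for AQP1, 2.93 to 6.17-fold for AQP11 and 1.42 to 2.33-fold for AQP3. Without AQP1, which has no row named by its symbol, an alternative added after seeing the data, AQP11 took 67.1% and AQP8 26.8% in testis and AQP9 77.1% in epididymis, because fewer genes make up the sum. DESeq2 size factors moved the median log2 fold change of all genes from -0.07 to 0.05. Without the filter 3 listed aquaporins were higher in epididymis, AQP4 being the added call, while AQP2 and AQP5 were not called (edgeR adjusted p = 0.196 and 0.297) at their few reads. Without epididymis replicates 3 and 4, log2 fold changes were -8.63 for SLC9A3, 8.65 for GK2, 7.59 for LRRC8B and -7.23 for CFTR, and SLC14A1 was called (log2 1.47, edgeR adjusted p = 0.0183), as it was by DESeq2 (adjusted p = 0.0435).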
